A study of Mus musculus with 6 samples.

Results

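The genes described here are 10 components of the Notch pathway, namely the receptors Notch1, Notch2 and Notch3, the ligands Dll1, Dll3 and Jag1, the fringe glycosyltransferases Mfng and Lfng, the adaptor Numbl and the DNA-binding factor Rbpj. They were taken from the count table by gene symbol, with no threshold on any value. All 10 were found among its 22001 genes, and all 10 were among the 13560 genes with enough counts to be tested. The cells came from the neocortex of mouse embryos of stage E14.5, where the number is the embryonic day. Plasmid DNA had been put into the embryonic brain by in utero electroporation at E13.5, 24 h earlier. In this method an electric field drives injected plasmid into cells that line the ventricle. The cells expected to carry the plasmid are those cells and their progeny. The control group received a plasmid for the red fluorescent protein mCherry alone, and the Insm1 group received a plasmid for Insm1 together with mCherry. Insm1, a zinc-finger protein that regulates transcription, is made by basal progenitors and newborn neurons, and the study asked how forcing its expression affects the detachment of progenitors from the ventricular surface. Each group had 3 libraries, all from mCherry-positive cells. No genetic modification of the embryos is given in the labels, and the sources used here do not give strain, sex, plasmid promoter or whether embryos were pooled.

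Notch receptors are transmembrane proteins that are cleaved when a ligand on a neighbouring cell binds and is pulled into that cell. The freed intracellular part then joins Rbpj on DNA and turns on Hes and Hey genes, which repress neuronal differentiation. In the embryonic cortex this signalling keeps apical progenitors, the dividing cells attached to the ventricle, undifferentiated, while their differentiating daughters present the ligands.

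Library totals lay between 30017645 and 31645135 counts, and Insm1 itself measured 222 to 371 CPM (counts scaled to a common library total and corrected for library composition by TMM) in the control libraries and 1436 to 2173 CPM in the Insm1 libraries. Those counts do not separate the plasmid's Insm1 from the embryo's own. Over all tested genes, 454 of 13560, or 3.35%, passed an adjusted p below 0.05 in edgeR's quasi-likelihood test, 167 higher (1.23%) and 287 lower (2.12%) with Insm1. The summed level of 10 apical progenitor markers other than Hes1 and Hes5 was 2533 to 2702 CPM in control libraries and 1441 to 1785 CPM in Insm1 libraries, and 6 of all 12 apical markers fell while 0 rose. For 10 projection neuron markers the sums were 7069 to 7362 CPM and 8144 to 8855 CPM, and for 7 basal progenitor markers other than Insm1 they were 1858 to 2105 CPM and 2083 to 2275 CPM. Of the projection neuron markers 4 of 10 rose and 1 fell. Of all 8 basal progenitor markers 3 passed as higher, namely Insm1 itself, Nhlh1 and Sstr2, and 0 passed as lower. The log2 fold change was above 0 for 4 of the 8 and below 0 for 4: Eomes (-0.05), Neurog2 (-0.12), Btg2 (-0.06) and Gadd45g (-0.41). No listed marker gene of neocortical cells was at 0 in all libraries. Marker sums of other cell types the sort could hold are given next, controls first and Insm1 libraries second. They were 8.31 to 16.1 and 5.40 to 8.21 CPM for interneurons and 1.10 to 61.3 and 8.99 to 31.3 CPM for microglia. For meningeal fibroblasts they were 3.36 to 3.89 and 2.63 to 3.65 CPM. Cajal-Retzius cell sums were 130.3 and 125 CPM in control libraries 1 and 3, and 33.6 CPM in control library 2. With Insm1 those sums were 34.7 to 50.4 CPM. Erythroid markers ranged from 186 to 3133 CPM among controls and from 1713 to 3670 CPM among Insm1 libraries.

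Of the 10 Notch genes, 4 passed the test across all genes. Notch1 and Notch2 fell in the cells given Insm1, to 1.34-fold and 1.55-fold lower levels, and Mfng and Numbl rose, to 1.27-fold and 1.29-fold higher levels. Notch3, Lfng and Dll3 did not pass, with point estimates of 1.73-fold lower, 1.92-fold lower and 1.43-fold higher, and Dll1, Jag1 and Rbpj each had overlapping groups. The 4 of 10 called stand beside 3.35% of all tested genes, and the median log2 fold change was -0.13 over the 10 genes and -0.0086 over all. In 7 of the 10 every library of a group lay beyond the other group, lower with Insm1 in 4 and higher in 3. Over all tested genes this was so for 22.2%, with 11.8% lower and 10.4% higher. The 10 genes were chosen with earlier results of these data known, so neither comparison of shares is a test of the list. In bulk RNA of this kind, fewer cells of a type and less RNA per cell cannot be told apart.

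**Figure D1:**
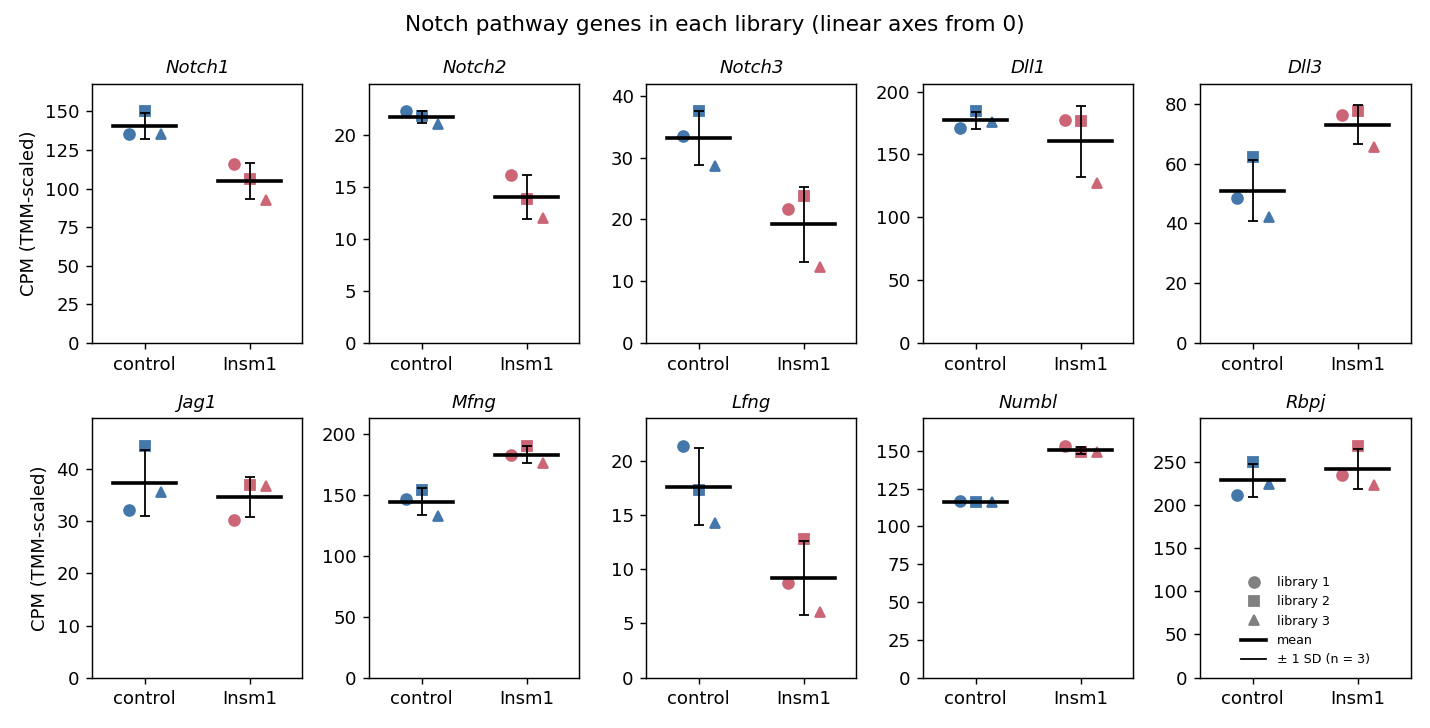
CPM of each of the 10 Notch genes in the 3 control and 3 Insm1 libraries, on linear axes that start at 0, 1 panel per gene. Points are libraries, horizontal lines are group means and vertical bars are ± 1 SD (n = 3). The groups stand apart in 7 panels and overlap in those of Dll1, Jag1 and Rbpj.

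The sequences just before the annotated starts of the receptors that fell, of Lfng and of Numbl are shown because these genes moved, or measured most differently, within their roles. RefSeq windows on GRCm38.p6 were matched by symbol for 9 of the 10 genes, all but Mfng, and there were 11 because Dll1 and Rbpj have 2 annotated starts each. The 250 bases before each start were searched on both strands for TGGGAA, the core of the Rbpj site, and for CAGGGG, the core of the Insm1 site. In opposite orientations these motifs can share the letters CA or TG at their ends. The windows are chr2:26503823-26504072 on the minus strand, chr3:98013288-98013537 on the plus strand, chr5:140607091-140607319 on the plus strand and chr7:27258511-27258724 on the plus strand, the last 2 shortened where protein-coding exons lie. By GENCODE M21 the Notch1 and Numbl windows lie within the gene's span but outside the exons of its protein-coding transcripts, the Notch2 window reaches into the gene's start, and the Lfng window ends just before it. Each is written 5′ to 3′ along the gene's strand, and capitals mark either motif in either orientation.
Notch1: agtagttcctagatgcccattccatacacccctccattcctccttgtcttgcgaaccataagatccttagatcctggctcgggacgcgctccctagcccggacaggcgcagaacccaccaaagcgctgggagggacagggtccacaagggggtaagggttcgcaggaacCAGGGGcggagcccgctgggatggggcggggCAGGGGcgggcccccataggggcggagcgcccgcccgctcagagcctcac
Notch2: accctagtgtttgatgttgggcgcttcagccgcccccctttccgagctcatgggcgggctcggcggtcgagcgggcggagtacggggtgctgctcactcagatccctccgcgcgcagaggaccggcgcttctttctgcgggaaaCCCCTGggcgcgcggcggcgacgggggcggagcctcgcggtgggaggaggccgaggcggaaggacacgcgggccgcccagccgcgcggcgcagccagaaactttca
Lfng: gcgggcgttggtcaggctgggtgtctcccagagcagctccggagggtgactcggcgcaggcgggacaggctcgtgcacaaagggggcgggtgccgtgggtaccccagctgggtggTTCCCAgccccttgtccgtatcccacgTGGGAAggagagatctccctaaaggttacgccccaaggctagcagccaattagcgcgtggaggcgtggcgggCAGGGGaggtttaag
Numbl: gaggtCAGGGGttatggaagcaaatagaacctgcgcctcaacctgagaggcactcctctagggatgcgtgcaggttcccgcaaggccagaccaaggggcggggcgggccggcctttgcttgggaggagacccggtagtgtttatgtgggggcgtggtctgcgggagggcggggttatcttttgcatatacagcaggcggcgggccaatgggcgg
The Notch1 window holds the Insm1 core 2 times, and those of Notch2, Lfng and Numbl hold it once each. The Lfng window also holds the Rbpj core 2 times, and no Rbpj core is in the other 3. Of the 11 windows, 6 held the Insm1 core, namely those of Notch1, Notch2, Notch3, Dll3, Lfng and Numbl, against 21.2% of 32851 RefSeq windows of the same length. The Rbpj core was in 3 of the 11, that of Lfng and both of Rbpj, which overlap each other, against 21.6% of all windows. The 6 genes whose windows hold the Insm1 core include genes that measured lower and genes that measured higher with Insm1. A Hes N-box (CACNAG) was in 4 of the 11 windows and an E-box (CANNTG) in 6, against 36.7% and 66.2% of all windows. These are matches of letters in short windows, and no binding was measured.

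Notch1 (ENSMUSG00000026923, chromosome 2, 26457903 to 26516663 on GRCm38) encodes the main Notch receptor of cortical progenitors. Its level was 136, 149.9 and 135 CPM in control libraries 1, 2 and 3, and 116, 106 and 92.9 CPM in Insm1 libraries 1, 2 and 3. Every Insm1 library lay below every control library. The means were 140.3 ± 8.34 CPM (SD, n = 3) and 105 ± 11.5 CPM (SD, n = 3), a log2 fold change of -0.42 (SE 0.09, edgeR adjusted p 0.0337). The call rested on the full set of libraries: with any library other than Insm1 library 1 left out, the edgeR adjusted p was 0.0680 to 0.104, and without that library it was 0.0276.

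Notch2 (ENSMUSG00000027878, chromosome 3, 98013527 to 98150361) is a second receptor of the family, also made by cortical progenitors. It stood at 22.3, 21.8 and 21.1 CPM in the controls and at 16.2, 13.9 and 12.0 CPM with Insm1. The control libraries were nearly alike and all lay above the Insm1 libraries, which spread more widely. Mean levels were 21.8 ± 0.599 and 14.0 ± 2.12 CPM, with a log2 fold change of -0.63, a standard error of 0.14 and an edgeR adjusted p of 0.0431. As for Notch1, the call held only when Insm1 library 1 was the library left out (adjusted p 0.0365), and the other omissions gave 0.0680 to 0.140.

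Notch3 (ENSMUSG00000038146, chromosome 17, 32120820 to 32166852) encodes a receptor known from vascular mural cells that cortical progenitors also make. Its values were 33.5, 37.5 and 28.7 CPM in controls and 21.6, 23.8 and 12.3 CPM with Insm1. The groups did not overlap, and Insm1 library 3 was the lowest by a wide margin. At a log2 fold change of -0.79 (SE 0.22) the edgeR adjusted p was 0.0918, so the gene did not pass. Its 95% interval, not adjusted for the number of genes, ran from -1.28 to -0.30. DESeq2 gave an adjusted p of 0.00628 for it, in a test that called 4.64% of genes lower. Summed mural cell markers were 1.53 to 3.21 CPM in controls and 1.36 to 3.65 CPM with Insm1, and endothelial markers 0.519 to 1.44 and 1.07 to 2.79 CPM, so the defining genes of vessel cells were near 0 in both groups. Insm1 library 3 was the lowest of its group for all 3 receptors, and it was also the lowest for the apical progenitor markers (1441 CPM) and for Insm1 (1436 CPM). The part of progenitor content in the receptor levels was not tested.

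Dll1 (ENSMUSG00000014773, chromosome 17, 15367354 to 15376872) encodes the main activating ligand of differentiating cortical cells. It measured 171, 184 and 176 CPM in controls and 177, 176 and 128 CPM with Insm1. Libraries 1 and 2 of the Insm1 group lay within the control range and library 3 lay below it. The log2 fold change was -0.14 (95% interval -0.40 to 0.11, edgeR adjusted p 0.609).

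Dll3 (ENSMUSG00000003436, chromosome 7, 28293553 to 28302238) encodes a divergent ligand that does not activate Notch on neighbouring cells and is known to act within the cell that makes it. The controls held 48.7, 62.1 and 42.2 CPM and the Insm1 libraries 76.2, 77.5 and 65.6 CPM. All 3 Insm1 libraries were above all 3 controls, although control library 2 came close to the lowest of them. The means were 51.0 ± 10.2 and 73.1 ± 6.55 CPM, and with a log2 fold change of 0.52, a standard error of 0.14 and an edgeR adjusted p of 0.0755 the gene did not pass. Leaving out control library 2 gave an adjusted p of 0.00879. DESeq2 gave 0.00516, in a test that called 3.32% of genes higher.

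Jag1 (ENSMUSG00000027276, chromosome 2, 137081456 to 137116644) encodes a ligand of the Serrate class. It ranged from 32.1 to 44.4 CPM in controls and from 30.2 to 37.0 CPM with Insm1, so most libraries fell in a shared range. Its log2 fold change was -0.11 (95% interval -0.42 to 0.20, edgeR adjusted p 0.784), and it changed sign to 0.04 when control library 2 was left out.

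Mfng (ENSMUSG00000018169, chromosome 15, 78755882 to 78773475) encodes manic fringe, a Golgi enzyme that extends sugars on Notch and thereby alters its response to ligands. Its level was 146, 154 and 132 CPM in controls and 182, 189.8 and 176 CPM with Insm1, with every Insm1 library above every control. The means were 144 ± 11.02 and 183 ± 6.96 CPM, with a log2 fold change of 0.34, a standard error of 0.07 and an edgeR adjusted p of 0.0337. The call was kept when control library 2 was left out (adjusted p 0.0198) and lost with each of the other 5 omissions (0.0721 to 0.127).

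Lfng (ENSMUSG00000029570, chromosome 5, 140607320 to 140615545) encodes lunatic fringe, an enzyme of the same kind that is known to favour signalling from Delta ligands over Jagged ligands. The controls held 21.4, 17.3 and 14.3 CPM, and the Insm1 libraries held 8.76, 12.8 and 6.04 CPM. The groups did not overlap, but both were scattered, with SDs of 20.2% and 37.0% of their means. Its log2 fold change of -0.94 was the largest in size among the 10 genes, and its standard error of 0.26 was also the largest. The edgeR adjusted p was 0.0908, which did not pass. Without Insm1 library 2 the adjusted p was 0.0486, and DESeq2 gave 0.00879.

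Numbl (ENSMUSG00000063160, chromosome 7, 27258433 to 27282144) encodes Numb-like, an adaptor protein related to Numb, which binds Notch and is known to restrain its signalling. It had the tightest groups of the 10 genes, at 116, 116 and 116 CPM in controls and 153, 149 and 149 CPM with Insm1. Means of 116 ± 0.309 and 150.3 ± 2.35 CPM gave a log2 fold change of 0.37 with a standard error of 0.06 and an edgeR adjusted p of 0.0111. This call held in 5 of 6 omissions of a library and was lost without control library 3 (0.0556). Rbpj (ENSMUSG00000039191, chromosome 5, 53466152 to 53657362), the factor through which cleaved Notch reaches DNA, ranged from 211 to 249 CPM in controls and from 223 to 268 CPM with Insm1. The groups overlapped, and its log2 fold change was 0.08 (95% interval -0.11 to 0.27, edgeR adjusted p 0.710).

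**Figure D2:**
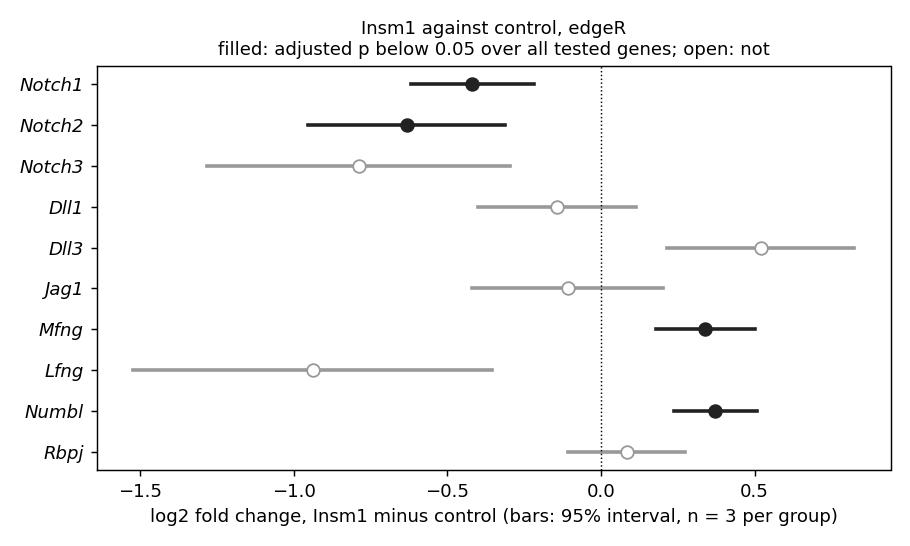
Log2 fold change of each Notch gene, Insm1 against control, with its 95% interval from edgeR's fit, not adjusted for the number of genes; filled points passed the test over all 13560 genes. Notch1 and Notch2 lie below 0 and Mfng and Numbl above it among the called genes, and the widest interval is that of Lfng, from -1.52 to -0.35.

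An exact two-sided permutation test of mean log2 CPM, over 3 against 3 libraries, gave p = 0.1 for each of the 7 genes whose groups did not overlap, which is the smallest p that this design allows. The same exact permutation test gave p = 0.6 for Dll1, for Jag1 and for Rbpj.

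Levels of different genes were set side by side as CPM per kilobase of annotated exon. In control cells Mfng was the highest at 50.8 ± 3.88 and Dll1 followed at 42.0 ± 1.57 CPM per kilobase. Rbpj at 17.9 ± 1.53 and Dll3 at 17.9 ± 3.57 overlapped and so had no order between them. Numbl at 13.4 ± 0.0357 and Notch1 at 9.86 ± 0.586 came next. Lfng at 7.04 ± 1.42 and Jag1 at 6.41 ± 1.09 overlapped, and Notch3 at 4.11 ± 0.544 and Notch2 at 2.02 ± 0.0555 were the lowest. A ligand and a fringe thus headed the order and a pair of receptors closed it.

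With Insm1, Mfng (64.3 CPM per kilobase) and Dll1 (38.0) still headed the order, and Dll3 at 25.7 stood above Rbpj at 19.0, which it had overlapped in the controls. Rbpj and Numbl, at 17.3, overlapped. Notch1 at 7.37 and Jag1 at 5.95 came next, and Lfng at 3.67 overlapped Notch3 at 2.38. Notch2 had the lowest mean at 1.30. Several of these ranks depend on the length used: by the principal transcript alone, Numbl in controls was at 42.1 and level with Rbpj at 41.9, both above Dll3 at 19.5. With Insm1 on that scale Numbl at 54.5 stood above Dll1 at 44.8, Rbpj at 44.4 overlapped Dll1 and lay above Dll3 at 27.9, and Jag1 at 6.18 overlapped Lfng at 3.99.

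**Figure D3:**
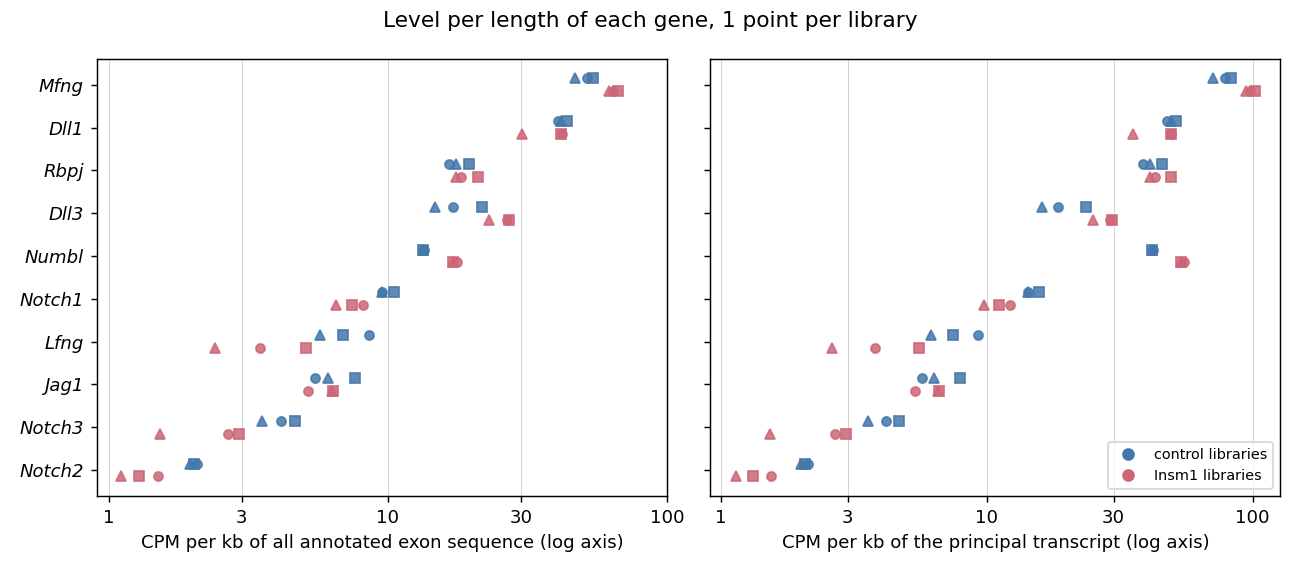
CPM per kilobase for the 10 Notch genes on log axes, by all annotated exon sequence on the left and by the principal transcript on the right, with 1 point per control or Insm1 library. Mfng is the highest and Notch2 has the lowest mean in both groups on both scales, while Numbl and Rbpj change rank between the scales.

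Members of a role were also compared within each library as a ratio of counts, in which library scaling cancels. The Mfng to Lfng ratio was 6.85, 8.91 and 9.28 in controls and 20.8, 14.8 and 29.1 with Insm1, so the fringes moved apart by 2.51-fold. For Dll3 to Dll1 the ratios were 0.284, 0.337 and 0.240 in controls and 0.430, 0.440 and 0.514 with Insm1, a 1.62-fold difference. Both ratios were higher in every Insm1 library than in any control.

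The ratio of Numbl to Numb, its close relative, was 5.25, 4.73 and 5.98 in controls and 8.53, 6.25 and 7.91 with Insm1. Among receptors, Notch2 to Notch1 was 0.165, 0.146 and 0.156 in controls and 0.140, 0.131 and 0.129 with Insm1. Both sets were without overlap, so that Notch2 measured lower relative to Notch1 by 1.16-fold. Notch3 to Notch1 (0.212 to 0.250 against 0.133 to 0.224) and Jag1 to Dll1 (0.187 to 0.241 against 0.170 to 0.288) overlapped. The exact permutation p was 0.1 for each of the 4 ratios without overlap, 0.2 for Notch3 to Notch1 and 0.8 for Jag1 to Dll1. Adjusted over the 6 ratios the values were 0.15 for those 4, 0.24 and 0.8, so none passed, as none could with 3 against 3.

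**Figure D4:**
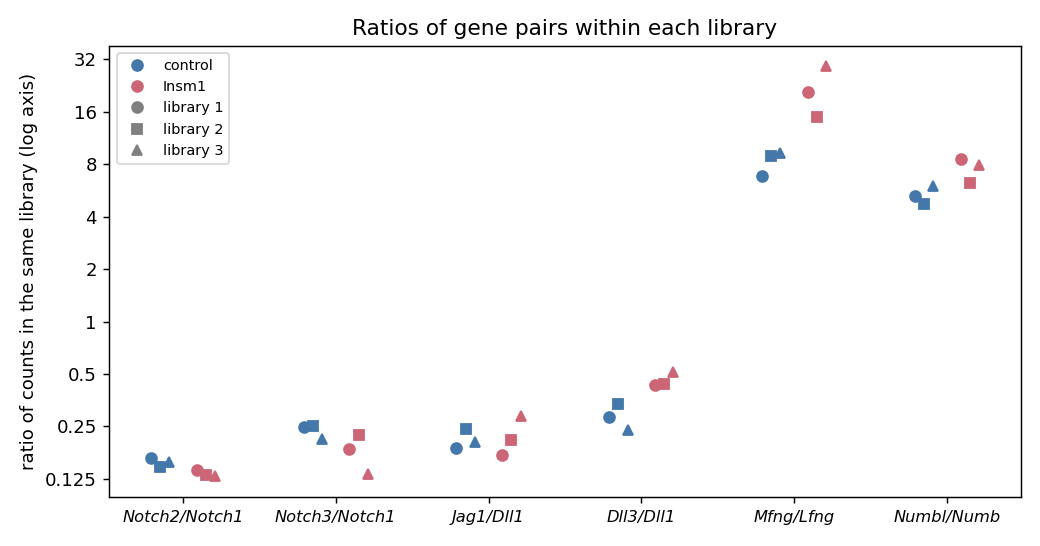
Ratio of counts of 2 genes in the same library for 6 pairs, on a log axis, with 1 point per control and Insm1 library. The Mfng to Lfng, Dll3 to Dll1 and Numbl to Numb ratios are higher, and Notch2 to Notch1 lower, in every Insm1 library than in every control library; the other 2 pairs overlap.

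As shares of the summed level of a role per kilobase of exon, Notch1 took 59.8 ± 1.69% of the receptors in controls and 64.5 ± 3.51% with Insm1, and Notch3 took 24.8% and 20.4%. Dll1 took 62.3 ± 3.27% of the 5 canonical ligands in controls and 53.7 ± 3.14% with Insm1, while Dll3 took 26.3 ± 3.10% and 36.5 ± 1.46%. Notch1 and Dll1 thus remained the most abundant receptor and ligand in both groups. Among the fringes, Lfng took 8.51 ± 1.31% and 3.92 ± 1.28%, and Mfng 61.7 ± 2.70% and 69.4 ± 1.49%. On the deposited TPM values, whose lengths include introns, Notch1 took 69.4 ± 1.93% and 73.1 ± 3.19% of the receptors and Dll1 took 71.7 ± 2.92% and 63.2 ± 2.61% of the ligands. The most abundant fringe differed between the scales: it was Mfng per kilobase of exon and Rfng, at 63.0% and 60.7%, by TPM. These shares are a description without a test.

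The pathway beyond the 10 genes was read from a list of 67 Notch genes that includes them, also chosen with earlier results known. Of these, 66 were tested, 3 rose (Mfng, Numbl and Dtx1) and 5 fell (Notch1, Notch2, Bend6, Nedd4 and Dtx4), beside 1.23% and 2.12% of all tested genes. Without the 10 genes, 1 of 56 rose and 3 fell, and the median log2 fold change was 0.03, beside -0.0086 over all tested genes. By the list's own roles, the called genes outside the 10 were Dtx1, Dtx4 and Nedd4, of 11 tested under antagonist or turnover, and Bend6, of 8 tested Rbpj corepressors. With DESeq2 the list had 5 higher and 9 lower, beside 3.32% and 4.64% of the 12765 genes to which it gave an adjusted p.

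Bend6, a corepressor that binds Rbpj and is known to limit Notch targets, fell from 16.4 ± 5.72 to 4.87 ± 0.499 CPM. Its libraries read 21.04, 9.995 and 18.1 CPM in controls and 4.95, 4.34 and 5.33 CPM with Insm1, with a log2 fold change of -1.75 and an edgeR adjusted p of 0.00982. This was the largest change among the called genes of the list. Without control library 3 the log2 fold change was -1.67 and the gene no longer passed (adjusted p 0.0517). Of the 4 Deltex genes on the list, which belong to a family of ubiquitin ligases known for binding Notch, 1 fell and 1 rose. Dtx4 fell from 48.5, 29.7 and 39.7 CPM in controls to 17.7, 16.4 and 12.99 CPM (log2 fold change -1.32, adjusted p 0.00674) and kept its call in all 6 omissions of a library. Dtx1 rose from 84.0, 88.4 and 83.1 CPM to 115, 151 and 127 CPM (log2 fold change 0.62, adjusted p 0.0107), a call lost without control library 3 (0.0546). Dtx2 and Dtx3 did not pass in edgeR's test, with log2 fold changes of 0.07 (adjusted p 0.869) and 0.35 (0.134), and DESeq2 called Dtx3. Nedd4, a ubiquitin ligase with many substrates, fell from 2117 ± 139.9 to 1713 ± 112 CPM (log2 fold change -0.31, adjusted p 0.0323), and was called in 2 of 6 omissions. Nrarp, an inhibitor that Notch signalling itself induces, had means of 173 and 198 CPM with overlapping groups (adjusted p 0.569).

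Neither edgeR nor DESeq2 called a gene among the 6 for ligand endocytosis, the 10 for receptor cleavage or the 7 of the nuclear complex, and an unadjusted edgeR p below 0.05 was found for 0, 1 (Ncstn) and 0 of them. Mib1, a ubiquitin ligase that drives ligand uptake, measured 238 and 249 CPM (adjusted p 0.789), and Psenen, a gamma-secretase subunit, 30.1 and 33.7 CPM (0.442). Snw1, a coactivator of the Rbpj complex, measured 183 and 190.2 CPM (0.777), and Ctbp1, a corepressor, 497 and 508 CPM (0.840). Exons of Psenen, Ncstn and Snw1 overlap other genes, as do those of some other genes for receptor cleavage, so reads there cannot be assigned with certainty. In the cleavage group 9 of 10 log2 fold changes were above 0, with a median of 0.12, but none passed. All 4 receptors were below 0, with a median of -0.53, and 2 of them passed. Among the receptors, Notch4 measured only 4.16 and 3.56 CPM, with overlapping groups (edgeR adjusted p 0.798). The median over all tested genes was -0.0086. Dner, the most abundant noncanonical ligand, measured 78.8 and 82.2 CPM (0.786), and the fringe Rfng 61.0 and 61.7 CPM (0.961).

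Of the target genes, Hes1 measured 157, 242 and 207 CPM in controls and 142, 113 and 88.9 CPM with Insm1. The groups did not overlap, but the log2 fold change of -0.82 did not pass (edgeR adjusted p 0.0854). DESeq2 (0.0272), limma-voom (0.0499) and the edgeR fit without robust estimation (0.0475) called it, as did the fits without control library 1 (0.0473) and without Insm1 library 1 (0.0476), and over all alternatives the adjusted p ran from 0.0272 to 0.239. Hes5 had means of 1259.8 and 1165 CPM (adjusted p 0.718) and Hey1 124.8 and 119 CPM (0.794), with overlapping libraries in each case. Of the 4 targets tested, edgeR called 0, DESeq2 called 1, and 1 had an unadjusted edgeR p below 0.05, in both cases Hes1. Heyl had too few counts to be tested.

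**Figure D5:**
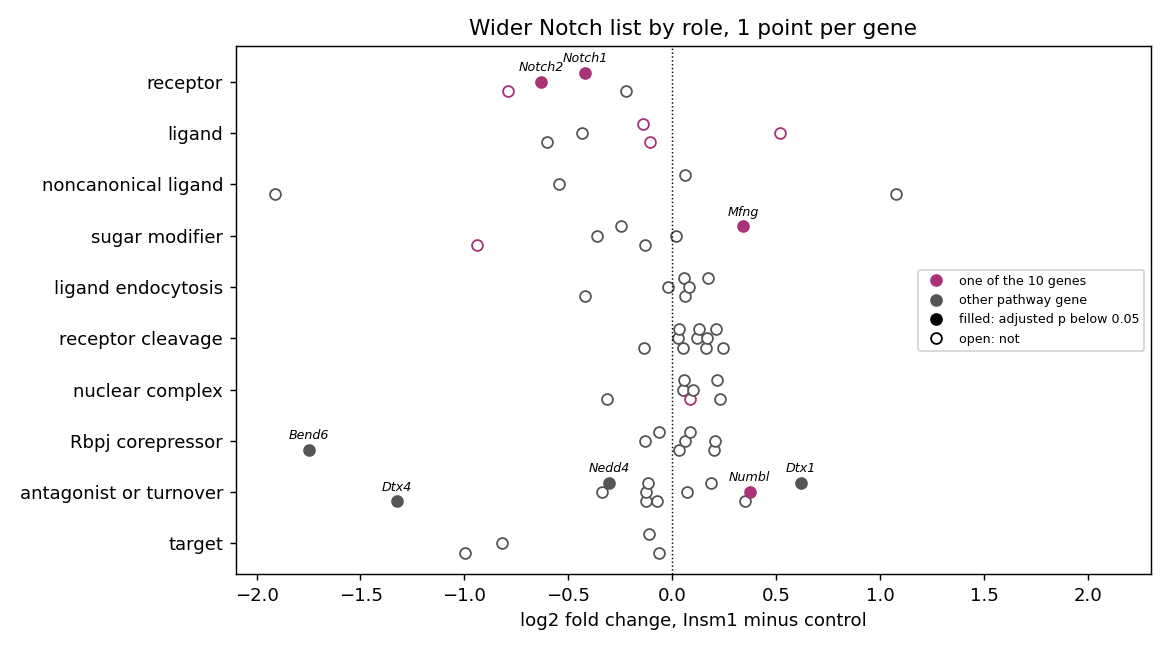
Log2 fold change, Insm1 against control, of the 66 tested genes of the wider Notch list by role, 1 point per gene, with the 10 genes in purple and called genes filled and named. The 3 called rises and 5 called falls lie on either side of 0, and Bend6 is the lowest of the called genes. All 4 receptors lie below 0, of which Notch1 and Notch2 were called.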

How the data were processed

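RNA of mCherry-positive E14.5 neocortical cells was sequenced in 3 control and 3 Insm1 libraries. Per the submitters' processing notes, the authors used bcl2fastq, TopHat2 2.0.13 and Bowtie with GRCm38, and the sources used here do not give the counting program, its strand setting or the annotation release. Counts in the deposited table are whole numbers, 1 row per Ensembl gene. The deposited TPM table holds the authors' TPM for the same genes, with 333 genes lacking a value. For 87.0% of 9716 genes with at least 300 counts the length behind the TPM lies within 1% of the gene's genomic span, introns included, and for 0.6% within 1% of its exons, so levels of different genes were also computed per kilobase of exon from GENCODE M21 (GRCm38). That step was added after the data were seen.

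Counts were tested with edgeR 4.0.16 (R 4.3.3): filterByExpr, TMM scaling, a robust quasi-likelihood fit to group, two-sided tests, and Benjamini-Hochberg adjustment over all 13560 genes at 0.05. CPM values are TMM-scaled, with factors of 0.975 to 1.021, and errors are SDs over 3 libraries. The labels do not say that libraries come from separate embryos, so p-values measure the spread between libraries, which may be technical. Libraries of a group differed by more than counting error (chi-square per degree of freedom 12.43 to 31.05). Reads carry no molecular identifiers. Tested on simulated data for the Insm1 comparison (13560 genes), the fit recovered 46.0% of changes of 1.5-fold, 63.8% of 2-fold changes and 83.8% of 4-fold changes. In those data it also called 10 genes that had not been changed.

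The 10 genes, the wider Notch list and the marker lists were chosen with earlier results of these data known. The text names all 10, every called gene of the wider list, the member of each role with the highest mean TPM, the targets Hes1, Hes5 and Hey1, and Insm1. Numb, Heyl, Ncstn, Dtx2, Dtx3 and Notch4 were named besides, all but Numb and Heyl after their values were seen. Alternative settings were upper-quartile or RLE scaling, limma-voom, DESeq2 1.42.0, limma 3.58.1 on log2(TPM + 1) or log2(TPM + 0.1), a 5 CPM filter or none, a replicate block, omission of each library, a fit without robust estimation, and removal of Insm1.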

Additional observations from a re-analysis of the deposited data

How the results depend on the processing

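Over all genes, DESeq2 called 424 higher and 592 lower, or 3.32% and 4.64% of the 12765 genes to which it gave an adjusted p. Limma on log2(TPM + 1) called 14 and 46, and limma on log2(TPM + 0.1) called 15 and 49. These compare with 167 and 287 in edgeR's fit. Leaving out each library in turn gave 43 to 227 higher and 73 to 418 lower. Calls were fewest without control library 3 and most numerous without control library 2. Among controls, library 2 had the highest marker sums for erythroid cells (3133 CPM) and microglia (61.3 CPM). Its sum for Cajal-Retzius cells (33.6 CPM) was the lowest of the controls. Of the 10 Notch genes, DESeq2 called 3 higher and 4 lower, adding Notch3, Dll3 and Lfng, and limma on TPM called 0 higher and 0 lower with either pseudocount (Numbl adjusted p 0.0602 and 0.0623). In the wider Notch list, with 3 higher and 5 lower in edgeR's fit, DESeq2 called 5 and 9 and limma on TPM called 0 and 0. For the 10 genes the omissions gave 0 to 3 higher and 0 to 2 lower, and 0 in either direction without control library 3. Without control library 2, 3 were called higher and 0 lower. RLE and upper-quartile scaling, limma-voom, either filter, the fit that is not robust and the removal of Insm1 left both counts at 2.

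With the replicate number as a block, 331 genes were called, 299 of them shared with the fit without it. The blocked fit called 3 of the 10 genes higher (Dll3 0.0424, Mfng 0.0469, Numbl 0.0378) and 1 lower (Notch3 0.0354), with Notch1 at 0.0516 and Notch2 at 0.0732. Whether the numbers pair the samples is not given in the labels. Deviations from group means correlated at -0.08, -0.15 and -0.16 for same-numbered libraries, and at -0.05 to 0.15 for the others. With 3 libraries per group, these correlations cannot decide whether the numbers mark pairs.

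Signs changed for Jag1 without control library 2 (log2 fold change 0.036, range over the omissions -0.20 to 0.036), for Hey1 without Insm1 library 3 (0.0072), and for the log2 difference of the Jag1 to Dll1 ratio without control library 1 (-0.02) and without Insm1 library 3 (-0.15, range -0.15 to 0.23). The share of Notch1 among receptors differed between groups by 3.63 percentage points on TPM, 4.69 per kilobase of exon and 3.995 by principal transcript, that of Dll1 among ligands by -8.48, -8.62 and -8.56, and that of Mfng among fringes by 6.09, 7.69 and 6.82. The causes of these differences were not tested. Lfng (187 to 660 counts per library) and Notch2 (371 to 689) are the most limited by depth.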
